A study of Mus musculus with 39 samples.

Results

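The 150 genes described here are the measured genes of the blue co-expression module with the strongest tie to that module. The authors' co-expression table gave 1878 genes the module colour blue, and 1184 of them were in the matrix of corrected expression values. After large gene families had been left out by name (such as zinc finger, solute carrier, ribosomal protein and proteasome genes), 1085 remained. The 150 members were chosen by MM.blue, the authors' correlation of a gene with the module eigengene, taken from the highest value down. MM.blue was computed from co-variation over the libraries, so the values that chose the members come from the same libraries that are compared below, and the joint behaviour of the members is a description and no test.

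Weighted gene co-expression network analysis groups genes whose levels rise and fall together across samples. Each group is named by a colour and is represented by an eigengene, the first principal component of the levels of its genes. A module can follow a treatment, a genotype, a mixture of cell types or a few samples, and the eigengene itself does not say which. Microglia are the resident macrophages of the brain; they sense bacterial lipopolysaccharide (LPS) through Toll-like receptor 4, and peripheral immune stimulation can leave lasting changes in them, called trained immunity or tolerance according to whether later responses are stronger or weaker.

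The libraries came from female C57BL/6J mice that were hemizygous for APP23 or were wildtype littermates. The APP23 transgene encodes human amyloid precursor protein carrying the KM670/671NL mutation, and its Thy-1 promoter is one used to drive expression in neurons. At 3 months of age the mice had 4 daily intraperitoneal injections: 4 of vehicle (PBS), 1 of LPS and then 3 of vehicle (1xLPS), or 4 of LPS (4xLPS), with LPS at 500 µg/kg. At 9 months microglia were sorted and polyadenylated RNA was amplified and sequenced as 39 bulk libraries, with 9, 9 and 6 wildtype libraries after PBS, 1xLPS and 4xLPS and 6, 5 and 4 APP23 libraries in the same order. Nothing in the labels ties each numbered library to a mouse of its own, so the p-values refer to the spread among libraries, part of which may be technical. In bulk RNA a lower level from fewer cells of a type and one from less RNA per cell cannot be told apart.

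Library means of the corrected log2 values were between 9.00 and 9.01, and they do not hold the sequencing depth. The 20 homeostatic microglia genes, among them P2ry12, Tmem119 and Cx3cr1, were all measured and averaged 12.33 to 12.44 in each library, whereas 0 of 5 lymphocyte markers and 1 of 5 neuronal markers were in the matrix.

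The word core was not borne out by the authors' own values. MM.blue of the members ran from 0.687 in Hcfc2 to 0.416 in Polr2j, with a median of 0.478. The authors' deposited table held 77 blue genes with a higher MM.blue than Hcfc2, of which 0 were in the matrix. The highest were Htr1d at 0.933, Krt75 at 0.924 and Unc5c at 0.923, genes of a serotonin receptor, a keratin and an axon guidance receptor. The median MM.blue was 0.258 for blue genes in the matrix and 0.367 for the 694 that were not. The limit of 150 fell within a smooth run of values: Uhrf1bp1, Rnaseh2a, Snrpf, Pcbd2 and Polr2j just inside lay at 0.416 to 0.418, and Rnasek, Dnah17, Nrm, Micu2 and Zscan29 just outside at 0.414 to 0.416. The group is therefore called the blue-module members below.

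Wildtype 4xLPS replicate 4 stood apart from all other libraries in these genes. To put genes on 1 scale, each gene's level was standardised by subtracting its mean over the 39 libraries and dividing by its SD. The mean standardised level of the 150 members was 2.05 in that library. The other 5 wildtype 4xLPS libraries lay between 0.283 and 0.552, and the next highest of all was APP23 PBS replicate 6 at 0.617. It held the highest of the 39 values in 78 of 150 members (52.0%), against 2.90% of all genes in the matrix, and the lowest in 0 members. On the log2 scale the members' levels in that library exceeded the mean of the other 5 libraries of its group by a median of 0.060, with a range from −0.024 in Tmem205 to 0.23 in Creb5.

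**Figure D1:**
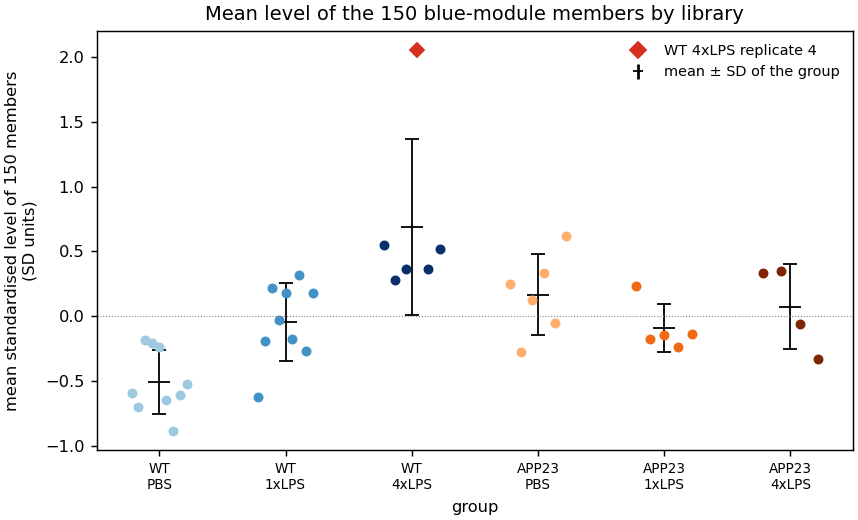
Mean standardised level of the 150 members (y axis, SD units) in each library, by group (x axis); bars give the group mean ± SD and the red diamond is wildtype 4xLPS replicate 4. That library sits at 2.05, and all other libraries lie at or below 0.617.

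MM.blue followed the level in that library. Over the 10907 genes of the matrix that have an MM.blue value, the Pearson correlation of MM.blue with the standardised level in wildtype 4xLPS replicate 4 was 0.84, the next highest was 0.23 in APP23 PBS replicate 6, and the most negative was −0.41 in wildtype PBS replicate 6. Over the 1085 blue genes from which the members were taken it was 0.76. Genes are not independent replicates, and both quantities rest on the same libraries, so these are descriptions. The median correlation between pairs of members over libraries was 0.26, and it was 0.16 without wildtype 4xLPS replicate 4. For comparison, the first 150 genes of the red, green and pink modules, taken in the same way, had median pair correlations of 0.34, 0.36 and 0.32, and 0.35, 0.37 and 0.33 without that library. When the correlation with the first component of the blue genes was recomputed here, 96 of the 150 members were among the first 150 with all libraries and 69 without wildtype 4xLPS replicate 4. Counts of members called at the adjusted threshold and members' medians are therefore given with and without it below, for comparisons that use it.

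**Figure D2:**
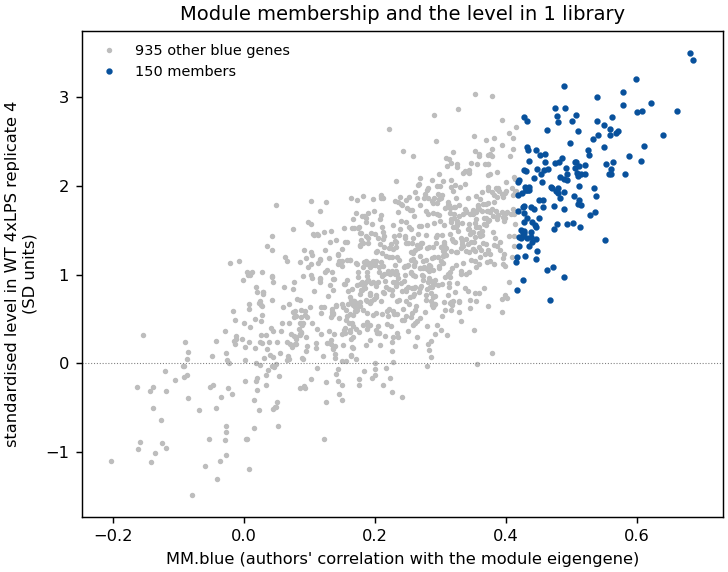
MM.blue from the authors' table (x axis) and standardised level in wildtype 4xLPS replicate 4 (y axis, SD units) for the 1085 blue genes; blue points are the 150 members and grey points the other 935 genes. The points rise together (r = 0.76 across genes).

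**Figure D3:**
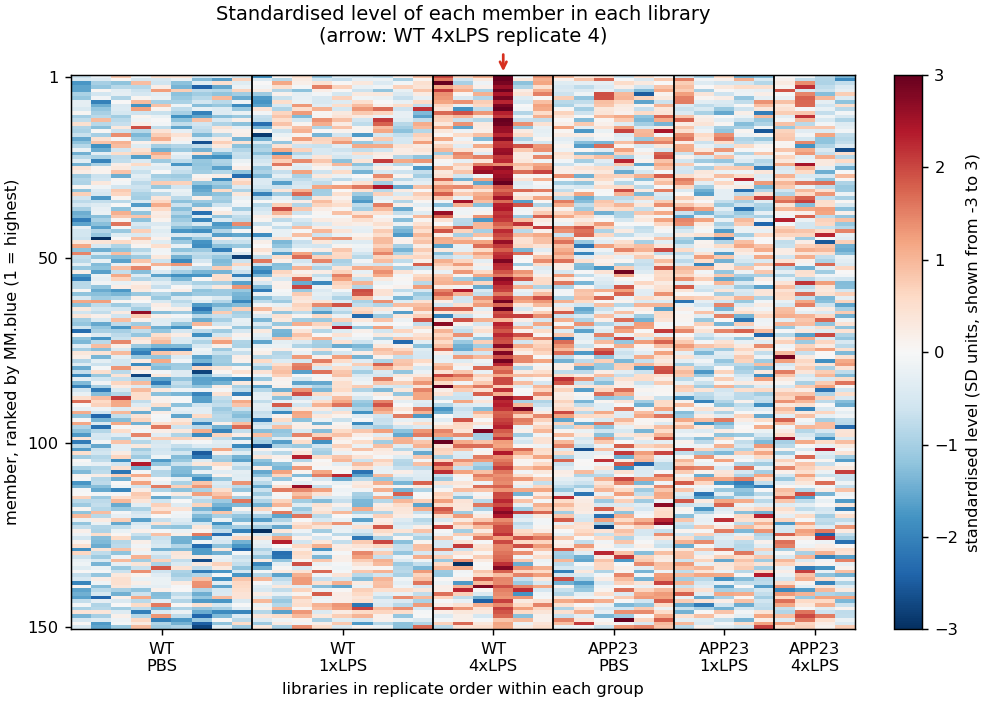
Standardised level (colour, SD units) of each of the 150 members (rows, ranked by MM.blue) in each of the 39 libraries (columns, by group); black lines part the groups. The column under the arrow, wildtype 4xLPS replicate 4, is red over nearly its whole length, and the wildtype PBS columns are mostly blue.

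Across the groups the members were lowest after PBS in wildtype mice. Their mean standardised level was −0.51 ± 0.24 (SD, n = 9) in wildtype PBS, −0.05 ± 0.30 (n = 9) in wildtype 1xLPS and 0.69 ± 0.67 (n = 6) in wildtype 4xLPS. In APP23 mice it was 0.17 ± 0.31 (n = 6) after PBS, −0.09 ± 0.19 (n = 5) after 1xLPS and 0.07 ± 0.33 (n = 4) after 4xLPS. All 6 wildtype 4xLPS libraries lay above all 9 wildtype PBS libraries (lowest 0.283 against highest −0.182), while the 3 APP23 groups overlapped each other. Without wildtype 4xLPS replicate 4 the wildtype 4xLPS mean was 0.42 ± 0.12 (n = 5). Wildtype PBS had the lowest of the 6 group means in 80 of 150 members, against 21.7% of all genes, and in 79 without that library. Wildtype 4xLPS had the highest in 96 members, against 18.01% of all genes, and in 67 without it. The choice of members by MM.blue enters these counts. The low level in wildtype PBS was also seen in other modules. The first 150 genes of the red, green and pink modules averaged −0.77 ± 0.19, −0.55 ± 0.34 and −0.84 ± 0.34 there (n = 9). Wildtype PBS had the lowest group mean in 117, 71 and 132 of them. In wildtype 4xLPS the same genes averaged 0.42 ± 0.13, −0.43 ± 0.35 and 0.61 ± 0.28 (n = 6). All wildtype 4xLPS libraries lay above all wildtype PBS libraries in the red module (lowest 0.288 against highest −0.400) and the pink module (0.142 against −0.207). In the green module they overlapped (lowest −0.839 against highest 0.062). The separation is therefore not particular to the blue-module members.

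Hcfc2 had the highest MM.blue; it encodes a host cell factor protein of chromatin complexes and lies on chr10:82696160-82742428 (plus strand). Its log2 level was 9.03, 9.05 and 9.10 (lowest, median and highest) in wildtype PBS, 8.99, 9.05 and 9.10 in wildtype 1xLPS, and 9.06, 9.11 and 9.20 in wildtype 4xLPS. It was 9.04, 9.08 and 9.10 in APP23 PBS, 9.04, 9.02, 9.09, 9.00 and 9.01 in the 5 APP23 1xLPS libraries, and 9.06, 9.06, 9.03 and 9.00 in the 4 APP23 4xLPS libraries. The value of 9.20 is wildtype 4xLPS replicate 4, and all 6 groups overlapped. The difference between wildtype 4xLPS and PBS was 0.06 ± 0.02 (log2, SE) with an adjusted p of 0.11. Cacna1c, an L-type calcium channel subunit, was second by MM.blue and was measured near the bottom of the scale. Its level was 4.840 to 4.897 in wildtype PBS, and 4.97 in wildtype 4xLPS replicate 4 against 4.87 to 4.92 in the other libraries of that group. The other members among the first 12 were Mfsd7b (a haem exporter), Oaz3 (an antizyme of polyamine metabolism), Alg10b (N-glycan assembly), Ralgapa2 (a Ral GTPase-activating subunit), Trmt13 (tRNA methylation), Golga1 (a Golgi tether), Mex3a (an RNA-binding protein), Klhl21 (a ubiquitin ligase adaptor), Bcl7c (a BAF chromatin remodelling subunit) and Katnal1 (a microtubule-severing subunit).

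In wildtype mice 4 LPS injections were the comparison with the most member calls. Each gene was fitted with limma over all 39 libraries, and a gene was called at a Benjamini-Hochberg adjusted p under 0.05 over all 10915 rows of the matrix. Between wildtype 4xLPS and wildtype PBS 14 members were called, all of them higher after 4xLPS, against 1.51% of all genes called in either direction. Without wildtype 4xLPS replicate 4, 7 were called, against 1.26% of all genes. A fit with 33 residual degrees of freedom, counted from the libraries alone, called 63, against 8.95% of all genes. A fit with the replicate number as a block called 1, against 0.229% of all genes. The difference was positive in 147 of 150 members with a median of 0.043 (log2), and in 139 with a median of 0.032 without that library; over all genes 53.5% were positive and the median was 0.0023. The SE of a member's difference had a median of 0.021, and 82 of the 150 had an unadjusted p under 0.05, against 17.4% of all genes. MM.blue, which chose the members, correlated over genes at 0.84 with the level in replicate 4 and at −0.14 to −0.41 with the wildtype PBS libraries. The excess of members over all genes is therefore partly set by the choice and is no test. Leaving replicate 4 out of the fit does not undo that choice.

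The 7 calls made both with and without that library were Nup210l, Gk, Arhgef25, Col11a2, Efnb1, Rpf2 and Tmem205. Of these, only the Efnb1 call was also made with the replicate number as a block. Nup210l, a testis-associated relative of the nuclear pore membrane glycoprotein gp210, lies on chr3:90104132-90212048 (plus strand). Its level was 7.02, 7.05 and 7.15 (lowest, median and highest) in wildtype PBS, 7.05, 7.15 and 7.22 in wildtype 1xLPS and 7.22, 7.25 and 7.31 in wildtype 4xLPS. All 6 wildtype 4xLPS libraries were above all 9 wildtype PBS libraries. The difference was 0.18 ± 0.03 (1.13-fold, adjusted p = 0.00385), and 0.18 ± 0.03 without replicate 4 (adjusted p = 0.00854).

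Efnb1 encodes ephrin-B1, a membrane-bound ligand of Eph receptors in contact signalling between cells, and lies on chrX:99136130-99148991 (plus strand). Its level was 9.13, 9.15 and 9.18 in wildtype PBS, 9.17, 9.25 and 9.30 in wildtype 1xLPS and 9.22, 9.26 and 9.30 in wildtype 4xLPS. After 4xLPS no library overlapped with wildtype PBS, and after 1xLPS only the lowest library did. The difference from PBS was 0.11 ± 0.02 after 4xLPS (1.08-fold, adjusted p = 0.00182; 0.11 ± 0.02 without replicate 4, adjusted p = 0.00812) and 0.09 ± 0.02 after 1xLPS (1.06-fold, adjusted p = 0.0172). Efnb2, a second ephrin-B ligand among the members, differed from PBS by 0.04 ± 0.02 after 4xLPS (adjusted p = 0.39), and Epha1, an Eph receptor, by 0.04 ± 0.01 (adjusted p = 0.16); neither was called.

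Gk encodes glycerol kinase, which feeds glycerol into lipid and energy metabolism, and lies on chrX:85701937-85776819 (minus strand). Its level was 7.92, 7.97 and 8.09 in wildtype PBS and 7.91, 7.97 and 8.12 in wildtype 1xLPS. In wildtype 4xLPS it was 8.05, 8.17 and 8.23, overlapping the top of both other groups. The difference between 4xLPS and PBS was 0.16 ± 0.04 (1.12-fold, adjusted p = 0.021), and 0.15 ± 0.04 without replicate 4 (adjusted p = 0.0404). Between 4xLPS and 1xLPS it was 0.17 ± 0.04 but did not pass (adjusted p = 0.10).

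Of the remaining calls made with and without that library, Arhgef25, a guanine nucleotide exchange factor, was higher after 4xLPS by 0.15 ± 0.03, and Col11a2, a fibrillar collagen chain gene, by 0.13 ± 0.03. Rpf2, a ribosome assembly factor, was higher by 0.08 ± 0.02, and Tmem205, a transmembrane protein gene, by 0.08 ± 0.02. The other 7 calls were not made without wildtype 4xLPS replicate 4. They were Ralgapa2 (0.16 ± 0.04), Katnal1 (0.14 ± 0.04), Ubn1 (0.14 ± 0.03, a histone H3.3 chaperone subunit), Bcl7c (0.11 ± 0.03), Cpt1b (0.09 ± 0.02, a carnitine palmitoyltransferase of fatty acid oxidation), the gene model Gm19897 (0.07 ± 0.02) and Laptm4a (0.05 ± 0.01, a lysosomal membrane protein). Without it their adjusted p lay between 0.0597 in Ubn1 and 0.0964 in Katnal1. They were also lost without other libraries. Of 15 fits that each left out 1 library of the 2 groups, from 2 for Ubn1 to 11 for Katnal1 lost the call. Among the calls made with and without replicate 4, Tmem205 and Rpf2 were each lost in 3 of these fits and Col11a2 in 1. The count also moved with other libraries: it was 5 without wildtype 4xLPS replicate 6, 6 without replicate 1 and 8 without replicate 3 of that group, and 8 and 9 without wildtype PBS replicates 6 and 9.

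**Figure D4:**
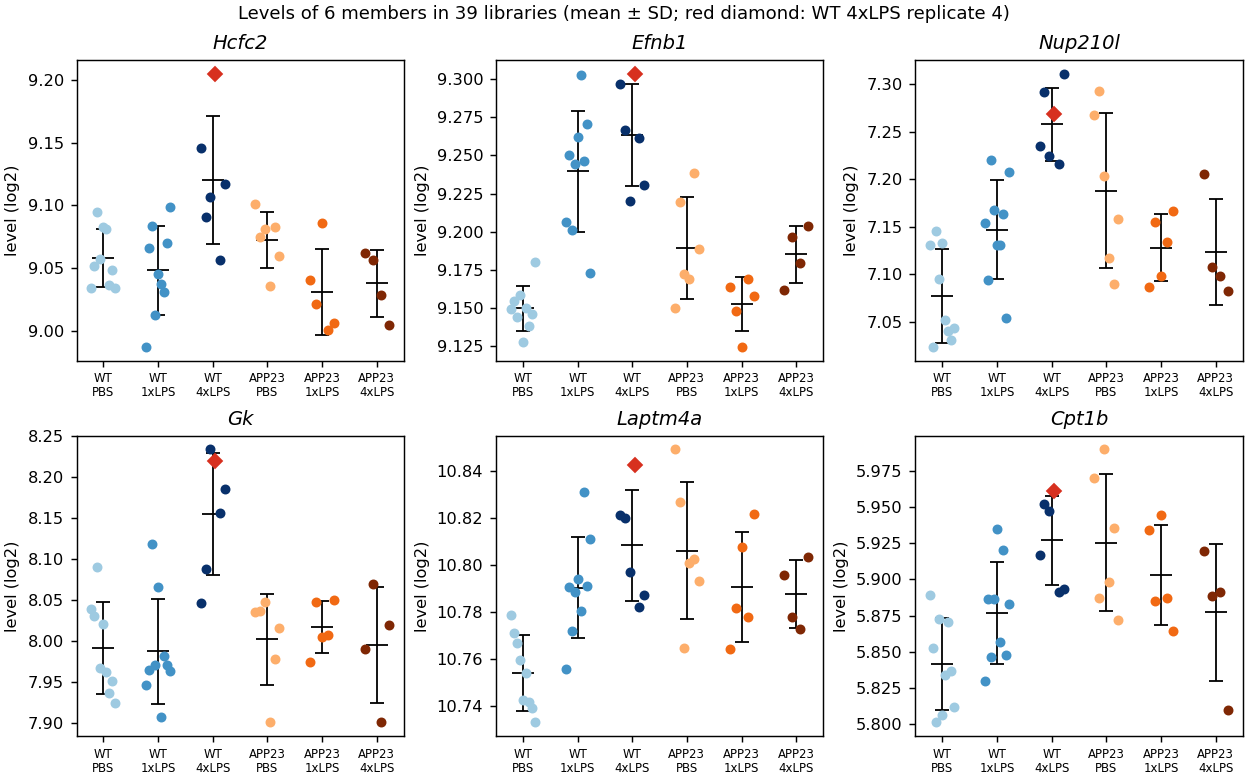
Log2 level (y axis) of 6 members in each of the 39 libraries, by group (x axis), with the group mean ± SD; the red diamond is wildtype 4xLPS replicate 4. In Efnb1 and Nup210l all 6 wildtype 4xLPS libraries lie above all 9 wildtype PBS libraries; in Hcfc2 the highest value of all, 9.20, is the diamond.

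After 1 LPS injection in wildtype mice Efnb1 was the 1 member called, against 0.440% of all genes. Without wildtype 4xLPS replicate 4, which adds only to the estimate of the spread, the count was also 1, against 0.531% of all genes. The fit with 33 residual degrees of freedom called 10, against 6.05% of all genes. The difference between wildtype 1xLPS and PBS was positive in 121 of 150 members, with a median of 0.016 (log2) and a range from −0.05 in Rrp12 to 0.10 in Mras. Between wildtype 4xLPS and 1xLPS limma called 0 members against 0.0183% of all genes, with 40 members at an unadjusted p under 0.05 (9.13% of all genes). The fit with 33 residual degrees of freedom called 5 (0.660% of all genes). Without replicate 4 limma also called 0. The difference was positive in 138 members with a median of 0.025, and in 117 with a median of 0.016 without replicate 4. The wildtype comparisons with PBS share their 9 control libraries, so their counts are not independent of each other.

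Genotype without LPS gave 3 member calls. Gm19897, Laptm4a and Cpt1b were higher in APP23 PBS than in wildtype PBS. They are a smaller share of the members than the 2.51% of all genes called, so the members held no excess of calls here. The fit with 33 residual degrees of freedom called 19, a share above the 9.62% of all genes. Laptm4a, on chr12:8921664-8938742 (plus strand), had levels of 10.73, 10.75 and 10.78 (lowest, median and highest) in wildtype PBS and 10.76, 10.80 and 10.85 in APP23 PBS, where only the lowest library overlapped with wildtype. The difference was 0.05 ± 0.01 (1.04-fold, adjusted p = 0.0427). Cpt1b, on chr15:89416405-89425863 (minus strand), had levels of 5.80, 5.84 and 5.89 in wildtype PBS and 5.87, 5.92 and 5.99 in APP23 PBS, which overlapped. The difference was 0.08 ± 0.02 (1.06-fold, adjusted p = 0.0373), and Gm19897 differed by 0.06 ± 0.02 (adjusted p = 0.0412). The fit without wildtype 4xLPS replicate 4, which is in neither group but adds to the estimate of the spread, called 4. That share was again below the 3.16% of all genes. Nup210l was the fourth (0.11 ± 0.03, adjusted p = 0.0487). The count was 0 without wildtype PBS replicate 9, 1 without APP23 PBS replicate 1 or 6, and 5 without wildtype PBS replicate 3 or 5. The difference was positive in 129 members with a median of 0.024, against 52.8% of all genes with a median of 0.0021. Wildtype PBS is the reference of this comparison and of both wildtype LPS comparisons, so its low values enter all 3. The choice of members by MM.blue favoured low values in that group. In this comparison Ccr2, the 1 measured gene of 5 monocyte and neutrophil markers, was called lower in APP23 PBS by 0.23 (8.90 to 9.11 against 9.06 to 9.37); whether it bears on the members was not tested.

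Within APP23 mice no member was called after LPS. Limma called 0 of 150 members between APP23 1xLPS and PBS, between 4xLPS and PBS and between 4xLPS and 1xLPS, against 0% of all genes in each. In that order 9, 2 and 6 members had an unadjusted p under 0.05, against 8.47%, 7.62% and 9.74% of all genes. The fit with 33 residual degrees of freedom also called 0 members in each, against 0.715%, 0.247% and 1.48% of all genes. The median difference was −0.009 for 1xLPS against PBS, with 48 of 150 positive, and −0.003 for 4xLPS against PBS, with 62 positive. The median for 4xLPS against 1xLPS was 0.007, with 90 positive. The smallest unadjusted p after 1xLPS was that of Cdc45, a replication helicase factor, at −0.10 ± 0.04 (adjusted p = 0.38). The APP23 groups hold 4 to 6 libraries, and the median SE of a member's difference was 0.025 for 1xLPS and 0.026 for 4xLPS against PBS, compared with 0.019 and 0.021 in wildtype mice.

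Between the genotypes after LPS 1 member was called. Efnb1 was lower in APP23 1xLPS than in wildtype 1xLPS by −0.09 ± 0.02 (0.94-fold, adjusted p = 0.0456), against 0.330% of all genes. The 5 APP23 1xLPS libraries had levels of 9.16, 9.15, 9.12, 9.17 and 9.16, all below the lowest wildtype 1xLPS library. That call is close to its threshold: the fit with 33 residual degrees of freedom called 2 (4.34% of all genes), and the count was 0 without any of the 5 APP23 1xLPS libraries and without wildtype 1xLPS replicate 4, 5, 6 or 8. Between APP23 4xLPS and wildtype 4xLPS limma called 0 members against 0% of all genes, also without wildtype 4xLPS replicate 4. At an unadjusted p under 0.05 there were 14 members, against 9.54% of all genes. The fit with 33 residual degrees of freedom called 5 (1.57% of all genes). The difference was negative in most members, with 23 of 150 positive and a median of −0.023, and 43 positive with a median of −0.013 without wildtype 4xLPS replicate 4.

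The test of whether the 4xLPS response differs between genotypes called Nup210l, 1 of 150 members, a share near the 0.522% of all genes. The fit with 33 residual degrees of freedom called 19 (5.30% of all genes). The interaction term of Nup210l, the APP23 response minus the wildtype response, was −0.25 ± 0.05 (adjusted p = 0.0223), and −0.24 ± 0.05 without wildtype 4xLPS replicate 4 (adjusted p = 0.024). The level of Nup210l was 7.09, 7.18 and 7.29 (lowest, median and highest) in APP23 PBS, while the 4 APP23 4xLPS libraries had 7.21, 7.11, 7.10 and 7.08, within the range of APP23 PBS in 3 of 4 cases and below all 6 wildtype 4xLPS libraries. The interaction was positive in 9 of 150 members with a median of −0.045, and in 19 with a median of −0.035 without replicate 4. For 1xLPS the interaction called 0 members in limma against 0.0366% of all genes, with 21 at an unadjusted p under 0.05 (12.2% of all genes). The fit with 33 residual degrees of freedom called 8 (3.39% of all genes). Without wildtype 4xLPS replicate 4 limma called 1 member, against 0.128% of all genes. It was Efnb1, at −0.13 ± 0.03 (adjusted p = 0.0485, and 0.0626 with all libraries). Both interactions use the same PBS libraries as the comparisons above, and the choice of members enters them too.

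**Figure D5:**
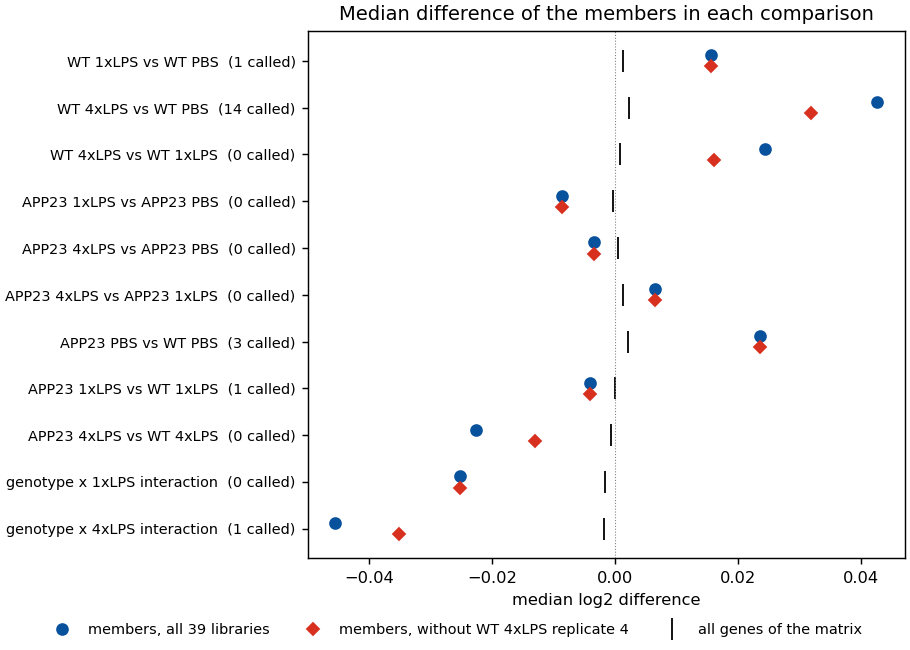
Median log2 difference of the 150 members (x axis) in each comparison (y axis, with the number of members called); blue circles use all 39 libraries, red diamonds leave out wildtype 4xLPS replicate 4, and black ticks give the median of all genes. The largest medians are 0.043 for wildtype 4xLPS against PBS and −0.045 for the 4xLPS interaction, and leaving out the library moves them to 0.032 and −0.035.

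Over all 6 groups at once, limma's F test called Efnb1 (adjusted p = 0.00392), Nup210l (adjusted p = 0.0258) and Gk (adjusted p = 0.0451). These are 3 of 150 members, a share near the 2.13% of all genes. Without wildtype 4xLPS replicate 4 it also called 3, against 3.02% of all genes. With 33 residual degrees of freedom it called 44, against 21.1% of all genes. The mean level of Efnb1 was 9.26 in wildtype 4xLPS and 9.24 in wildtype 1xLPS, followed by 9.19 in APP23 PBS, 9.19 in APP23 4xLPS, 9.15 in APP23 1xLPS and 9.15 in wildtype PBS. Each group overlapped with its neighbours in that order. For Gk the order was wildtype 4xLPS 8.15, APP23 1xLPS 8.02, APP23 PBS 8.002, APP23 4xLPS 7.995, wildtype PBS 7.991 and wildtype 1xLPS 7.987, and each group again overlapped with its neighbours.

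A role was assigned by hand to 104 of the 150 members, after their names were known. The counts below are for wildtype 4xLPS against PBS, where 1.51% of all genes were called, and 1.26% without replicate 4. There 17.4% of all genes had an unadjusted p under 0.05. Transcription and chromatin genes were the largest group, with 22 members. Of the 22, 2 were called, Ubn1 and Bcl7c, against 1.51% of all genes, and 0 without replicate 4; the median difference was 0.051, and 0.042 without it. Suz12 and Eed, which encode core subunits of Polycomb repressive complex 2, differed by 0.01 ± 0.03 (adjusted p = 0.93) and 0.04 ± 0.01 (adjusted p = 0.15). Smarca5, the ISWI remodelling ATPase, and Hdac8, a class I histone deacetylase, differed by 0.03 ± 0.02 and 0.04 ± 0.02, and Polr2h and Polr2j, subunits of RNA polymerase II, by 0.05 ± 0.02 and 0.03 ± 0.01. E2f6, a repressor of the E2F family, differed by 0.04 ± 0.02. None of these passed the test.

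The 14 RNA processing and tRNA modification members had 0 limma calls with and without replicate 4 and 6 members at an unadjusted p under 0.05, with a median of 0.037 and 0.019 without that library. Sf3a1, a subunit of the U2 small nuclear ribonucleoprotein, differed by 0.07 ± 0.02 (adjusted p = 0.12), Snrpf, a core Sm protein gene, by 0.02 ± 0.01 (adjusted p = 0.38) and Lsm8, of the U6 particle, by 0.01 ± 0.01 (adjusted p = 0.76). Ccnl1, a cyclin linked to splicing, differed by 0.01 ± 0.01 (adjusted p = 0.63). Among the 7 members of ribosome assembly and translation Rpf2 was called, with and without replicate 4, and the group's median was 0.034, and 0.029 without it. Gspt1, the translation release factor eRF3a, differed by 0.05 ± 0.02 (adjusted p = 0.12), and Rrp12, a factor of small ribosomal subunit assembly, by 0.07 ± 0.05 (adjusted p = 0.50). Kpnb1, the nuclear import receptor importin beta, was given no role and differed by 0.03 ± 0.02 (adjusted p = 0.44).

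Among the 18 members of mitochondria and metabolism Gk and Cpt1b were called, and 1 of them, Gk, without replicate 4. The group's median was 0.043, and 0.034 without that library. Spg7, a subunit of a mitochondrial inner membrane protease, differed by 0.07 ± 0.02 (adjusted p = 0.098), Tomm22, a receptor of the outer membrane import complex, by 0.03 ± 0.01 (adjusted p = 0.18) and Pfkfb3, which makes the glycolytic activator fructose 2,6-bisphosphate, by 0.03 ± 0.03 (adjusted p = 0.56). Among the 10 members of the secretory pathway, endosome and lysosome Laptm4a was called, and 0 without replicate 4, with a median of 0.046, and 0.039 without it. Ssr1, a subunit of the translocon-associated protein complex, differed by 0.04 ± 0.02 (adjusted p = 0.20).

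The 7 immune receptor and innate signalling members had 0 calls in limma with and without replicate 4 and 4 members at an unadjusted p under 0.05, with a median of 0.035, and 0.029 without that library. They include Lair1, an inhibitory collagen receptor (0.03 ± 0.01, adjusted p = 0.0705), Cblb, a ubiquitin ligase that restrains immune receptor signalling (0.13 ± 0.05, adjusted p = 0.12), Irak1, a kinase of the Toll-like receptor pathway (0.03 ± 0.02, adjusted p = 0.33), and Map3k14, the kinase of the noncanonical NF-kB pathway (0.01 ± 0.02, adjusted p = 0.93). The 11 members that are ephrins, Eph receptors, kinases or small GTPase regulators had 3 calls, Ralgapa2, Arhgef25 and Efnb1, against 1.51% of all genes, and 2 without replicate 4 (1.26% of all genes), with medians of 0.051 and 0.034. Mapk3, the MAP kinase ERK1, differed by 0.02 ± 0.01 (adjusted p = 0.51).

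The 3 members of cell cycle and DNA repair had the largest median of the role groups, 0.085 and 0.070 without replicate 4, and 0 calls in limma either way, with 2 members at an unadjusted p under 0.05. Cdc45 differed by 0.10 ± 0.03 (adjusted p = 0.0816), Cdk6, a kinase of the G1 phase, by 0.09 ± 0.04 (adjusted p = 0.22) and Fanca, of the Fanconi anaemia repair pathway, by 0.05 ± 0.03 (adjusted p = 0.35). Their median 4xLPS interaction, −0.14 and −0.13 without replicate 4, was also the farthest from 0 among the role groups, again with 0 calls in limma. Both ranks are those of 3 genes grouped by hand. Ccnl1 and E2f6, also on the list of cell cycle genes, were given other roles and had the smaller 4xLPS differences stated above. Of the 12 genes best known from other tissues (ion channels, muscle, neuronal, matrix and olfactory genes) Col11a2 was called with and without replicate 4, and the median was 0.042, and 0.033 without it. Rbfox3, the neuronal splicing factor NeuN and the 1 measured gene of 5 neuronal markers, is itself a member: it was highest of all 39 libraries in wildtype 4xLPS replicate 4, at 5.76 against 5.61 to 5.74 in the other 5 libraries of its group, and the part of neuronal RNA in the members' level was not tested. Against the same 5 libraries, the mean log2 levels of astrocyte, endothelial and border macrophage markers in that library were within the range. Oligodendrocyte markers were just below it, at 9.239 against 9.243 to 9.319, and the 20 homeostatic microglia genes above it, at 12.44 against 12.34 to 12.42, the second highest of the 39 libraries. Their part in the members' level was not tested either. The median was positive in every role group in wildtype 4xLPS against PBS, with and without replicate 4, which the choice of members by MM.blue favours.

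Some gene lists of the same pathways were counted without the members, again against 1.51% of all genes called in wildtype 4xLPS against PBS, and 17.4% at an unadjusted p under 0.05. They are examples, and lists left out ranged from none to several calls. With members counted, COPI, COPII and Golgi tethering had 2 higher and 1 lower of 62, and ribosome assembly and nucleolus had 0 of 43. Of 78 other spliceosome genes limma called 0 with and without replicate 4, with 11 at an unadjusted p under 0.05 and a median difference of 0.0076, and 0.0057 without that library. Of 94 other chromatin remodelling and histone modification genes 1 was higher and 2 were lower (3.19%), with a median of −0.0086. Without replicate 4, 1 was higher and 1 lower, with a median of −0.012. Of 57 other lysosome genes limma called 0 with and without replicate 4, with 9 at an unadjusted p under 0.05 and medians of 0.0092 and 0.0084. Of 97 other innate immune and interferon genes 1 was higher (1.03%), and 1 without replicate 4, with medians of −0.0074 and −0.0054.

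Beyond co-variation the members shared few measured features. Their median log2 level over libraries was 8.47, against 9.26 for all genes, and 60 members (40.0%) lay below the lower quartile of the matrix at 8.08; levels between genes are not per length. The median SD between libraries of a group was 0.034 for the members and 0.035 for all genes. Members lay on all 19 autosomes and the X chromosome, and 6 of the 145 with a single annotated position were on X (4.14%, against 3.07% of all genes). Median gene length was 24539 bases, against 23162.5 for all genes, and 96.6% against 95.7% were protein coding.

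Promoter windows from RefSeq (GRCm38.p6), 250 bases before to 50 bases after the transcription start, were found for 121 of the 150 members (80.7%), 2 of them through an older symbol. Their median GC content was 61.7%, against 61.0% over 8788 genes. Both strands were searched for 10 short motifs, spelled here 5′ to 3′. The E-box CACGTG, which binds bHLH factors, was in 16.5% of members' windows and 10.8% of all. ACGTG, the core of the hypoxia response element that also lies within that E-box, was in 35.5% and 26.8%. GAGGAAG, a purine-rich box of the PU.1 type, was in 8.26% and 13.6%, and the ETS core CCGGAAG in 17.4% and 20.4%. The remaining motifs were the GC box GGGCGG in 66.9% and 65.3%, CCAAT in 37.2% and 39.01%, the cAMP response core TGACGT in 16.5% and 12.9%, TATAAA in 9.09% and 6.68%, the NRF1 core GCATGCG in 7.44% and 7.11%, and the YY1 core AAGATGG in 6.61% and 8.05%. These shares are descriptions, and a match is not a bound site.

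The windows of the member with the highest MM.blue and of the 2 members called over all groups that have an entry are shown as examples of the windows searched. Capitals mark matches to the motifs above on either strand. They lie at chr10:82698757-82699056 (plus strand, the first of 2 entries) for Hcfc2, chrX:99135811-99136110 (plus strand) for Efnb1 and chrX:85776770-85777069 (minus strand) for Gk.
Hcfc2: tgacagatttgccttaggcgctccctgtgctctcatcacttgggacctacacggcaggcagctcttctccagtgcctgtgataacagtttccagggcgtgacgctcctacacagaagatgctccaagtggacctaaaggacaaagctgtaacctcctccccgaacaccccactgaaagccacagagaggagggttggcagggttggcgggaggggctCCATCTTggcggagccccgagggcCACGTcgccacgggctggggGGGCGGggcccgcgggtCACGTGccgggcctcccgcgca
Efnb1: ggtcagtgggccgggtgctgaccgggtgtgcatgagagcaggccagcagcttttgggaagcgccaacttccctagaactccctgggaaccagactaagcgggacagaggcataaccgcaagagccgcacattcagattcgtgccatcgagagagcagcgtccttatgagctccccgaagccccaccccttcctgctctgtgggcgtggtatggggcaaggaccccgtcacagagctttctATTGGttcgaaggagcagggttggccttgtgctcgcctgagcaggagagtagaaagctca
Gk: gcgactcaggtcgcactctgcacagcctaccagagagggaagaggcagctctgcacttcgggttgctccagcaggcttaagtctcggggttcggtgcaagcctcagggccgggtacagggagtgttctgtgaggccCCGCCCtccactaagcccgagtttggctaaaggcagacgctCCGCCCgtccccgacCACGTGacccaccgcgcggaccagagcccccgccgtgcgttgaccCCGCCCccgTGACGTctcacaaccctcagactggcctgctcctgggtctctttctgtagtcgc
The Efnb1 window held 1 match, a CCAAT box, where Gk held 7, among them 3 GC boxes, an E-box and a cAMP response core. Hcfc2 held 6, among them a YY1 core and an E-box.

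Outside the blue module the genes whose levels followed the members' mean standardised level most closely over the 39 libraries were G2e3 (Pearson r = 0.68, and 0.64 without wildtype 4xLPS replicate 4), Susd6 (0.67 and 0.65), Treml1 (0.66 and 0.71), Ecscr (0.62 and 0.61) and Rabgap1 (0.61 and 0.52), all 5 in the red module. Those that ran most against it were Ccdc51 (r = −0.68, and −0.50 without that library), Sec23a (−0.67 and −0.59), Hbegf (−0.66 and −0.62), Chd4 (−0.66 and −0.64) and Psmd13 (−0.66 and −0.55). These are the extremes of a search over the whole matrix and carry no test.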

How the data were processed

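Per the labels' protocols, 10k microglia per sample were sorted, cDNA was amplified from 3 ng of RNA (Smart-seq2 v4) and libraries were made with Nextera XT. The submitters' processing notes name FastQC, STAR 2.3.060, HOMER, DESeq2, limma and the build mm10 without the role of each. The deposited expression values were taken as log2, since no source used here states the log base; the authors had normalized and log-transformed them and, as the sheet name says, applied a surrogate variable correction. The deposited score columns are the authors' correlations of 13624 genes with a trait and with each module, and the p-value columns, per the file headers, belong to these correlations. One expression column matched no label (1 in all) and was not used.

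Group means were fitted over 39 libraries by limma 3.58.1 under R 4.3.3, using a mean-variance trend. The residuals had rank 24 where 33 was counted from the libraries, so the 9 directions without residual variance entered as covariates and 24 residual degrees of freedom were used. Benjamini-Hochberg adjustment ran over 10915 rows in each of 9 comparisons, 2 interactions and the F test. No filter or pseudocount was used; the fit was tested on simulated data. Alternatives were 33 degrees of freedom, no trend, a replicate block, subtracted library medians, genes above the lower quartile, no family left out, and each library left out. Same-numbered libraries of different groups had residual correlations of −0.38 to 0.28 (79 pairs, 17 above 0.1). Their median was 0.036, against −0.0015 for pairs with different numbers. The authors' correction may have taken out variance shared by such pairs, so these residuals cannot decide whether numbers pair libraries.

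Members and gene lists were chosen with earlier results of these data known. Named genes are the 12 with the highest MM.blue, up to 6 called members each way per comparison, members on the lists, those at the limit of 150 and the 5 genes most like or unlike the mean. Library values are given for only some of the 12. Other members named were chosen after their values were seen. Positions are GENCODE M21 (GRCm38), counted from 1; no source used here says whether counting used strand, so values of overlapping genes are uncertain.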

Additional observations from a re-analysis of the deposited data

Results flagged for a closer look

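The values below stood out because 1 library lay far from the rest of its group (Dixon's 95% value) or because the response differed between genotypes. The 16 items searched gave 96 group tests and 6 outlying values, and chance gives about 1 in 20.

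The mean standardised level of the blue-module members was 2.05 in wildtype 4xLPS replicate 4, where the next highest library of its group had 0.552. In APP23 1xLPS replicate 1 it was 0.237, against −0.136 in the next library of that group. Alg10b was highest in APP23 4xLPS replicate 1 at 7.43, with the next library at 7.31. Katnal1 was highest in APP23 4xLPS replicate 2 at 9.40, with the next at 9.23. Golga1 was lowest in wildtype 1xLPS replicate 1 at 10.17, with the next at 10.24. Bcl7c was lowest in wildtype PBS replicate 7 at 7.05, with the next at 7.11. The difference of Nup210l after 4xLPS differed between genotypes by −0.25 (log2, interaction, adjusted p = 0.0223 in limma).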

How the results depend on the processing

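The counts of called members depended on the residual degrees of freedom. With 33, which ignores the directions removed by the authors' correction, the counts were 10 for wildtype 1xLPS against PBS, 63 for wildtype 4xLPS against PBS, 5 for wildtype 4xLPS against 1xLPS, 19 for APP23 PBS against wildtype PBS, 2 for APP23 1xLPS against wildtype 1xLPS, 5 for APP23 4xLPS against wildtype 4xLPS, 8 and 19 for the 1xLPS and 4xLPS interactions and 44 for the F test. Whether the numbers pair the libraries could not be decided (3 libraries were closest to one of their own number). With the replicate block the count was 1 for wildtype 4xLPS against PBS (0.229% of all genes) and 0 for APP23 PBS against wildtype PBS (0.550%). For APP23 1xLPS against wildtype 1xLPS it was 0 (0%), for the 4xLPS interaction 0 (0.0183%) and for the F test 1 (0.348%). Among genes above the lower quartile at 8.08, where 90 members are counted, the counts were 7, 1 and 0. These are for wildtype 4xLPS against PBS, APP23 PBS against wildtype PBS and the 4xLPS interaction. The called members Nup210l (mean level 7.15), Gk (8.02), Col11a2 (6.37), Tmem205 (6.91), Bcl7c (7.16), Cpt1b (5.89) and Gm19897 lay below that quartile. They were left out of that fit, and their calls were not tested again there. With no family left out, where Efnb1 is no longer among the first 150, they were 0 for wildtype 1xLPS against PBS and 0 for APP23 1xLPS against wildtype 1xLPS. Subtracting library medians gave 1 for the 1xLPS interaction, and leaving out the trend gave 5 for the F test. The cause of these last changes was not tested.

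Leaving out 1 library at a time gave 5 to 17 for wildtype 4xLPS against PBS, 0 to 1 for wildtype 4xLPS against 1xLPS (1 without wildtype 1xLPS replicate 3), 0 to 5 for APP23 PBS against wildtype PBS, 0 to 1 for APP23 1xLPS against wildtype 1xLPS, 0 to 1 for the 1xLPS interaction (1 without wildtype PBS replicate 3 or 4, wildtype 1xLPS replicate 9 or APP23 PBS replicate 1), 1 to 3 for the 4xLPS interaction (3 without wildtype 4xLPS replicate 2, and 2 without wildtype PBS replicate 9, wildtype 4xLPS replicate 3 or 6, or APP23 PBS replicate 1, 3 or 6) and 2 to 6 for the F test. The F test gave 5 without wildtype PBS replicate 1 or 5, wildtype 1xLPS replicate 8, wildtype 4xLPS replicate 1 or APP23 4xLPS replicate 1 or 3, and 6 without wildtype 1xLPS replicate 3, 6 or 9, wildtype 4xLPS replicate 2, APP23 PBS replicate 1 or APP23 1xLPS replicate 5. Of the 20 single calls of members, 20 were also made with 33 degrees of freedom, 18 without the trend, 19 after subtracting medians, 2 with the block and 10 of 10 among the genes above the lower quartile; none turned direction under these alternatives or without any library. The 2 calls kept with the block were those of Efnb1 in wildtype 1xLPS and 4xLPS against PBS. Apart from 33 degrees of freedom, the block and wildtype 4xLPS replicate 4, shares of all genes are not given for these alternatives. Whether those counts moved with the calls over all genes is therefore not shown. Depth is unknown, so what it limits could not be read.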
